A study of Rattus norvegicus with 60 samples.

Results

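The comparison described here is the step from postnatal day 7 (P7) to postnatal day 14 (P14) in the prefrontal cortex of male rats of the HR line. It rests on 10 of the 60 samples of the study, all the prefrontal HR samples of those ages, 5 at P7 and 5 at P14. HR and LR are selectively bred rat lines on a Sprague-Dawley background that serve as a model of differences in anxiety- and depression-like behaviour. The whole study covered both lines, the prefrontal cortex and the amygdala, and the ages P7, P14 and P21, with 5 samples in each of its 12 groups. All animals were male and the labels name no engineered allele and no treatment. The tissue was prefrontal cortex dissected whole from frozen brain, so every value is an average over all the cell types present. The dissection text of the prefrontal samples speaks of the amygdala, so their region rests on the other labels. The column headers carry a code for each array whose first part is shared by arrays 13 and 15 at P14, by arrays 22 and 24 at P7 and by arrays 23 and 25 at P7. Array 11 at P14 and array 21 at P7 also share it, so that there are 4 such codes at P14 and 3 at P7. What the code stands for and how litters were spread over the groups are not stated, so a p-value here speaks of the spread among the arrays alone.

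Single-colour NimbleGen arrays gave 1 normalized intensity per transcript row and sample. Differences are log2 of P14 over P7, with the standard error (SE) of a limma fit to all 30 prefrontal arrays, and calls were made where the p adjusted by Benjamini-Hochberg over all 18564 rows was under 0.05. The table has no detection flags. A random control row lay between 45.6 and 54.6, and the median row, with a mean intensity of 74.0, serves as the guide to what is dim. Arrays are identified by the number in their column header, and values are listed in the order of arrays 21 to 25 for P7 and 11 to 15 for P14. Levels of different genes are not compared, since each probe set has its own brightness.

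In the second postnatal week the rodent cortex passes from a phase of axon and dendrite growth to one of synapse formation, interneuron maturation and the first myelination. Growing neurites are rich in microtubule and growth cone proteins, such as tubulins, stathmins and GAP-43, which most cortical neurons make less of once they are connected. Interneurons acquire their peptides, calcium-binding proteins and fast firing over the same weeks, while oxidative metabolism increases with the demand of synaptic activity.

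With limma, 26 rows were higher and 25 lower at P14 than at P7 in HR. These are 0.14% and 0.135% of the 18564 rows, or 0.275% together. The spread behind these calls came from all 30 arrays. With only the 10 HR arrays fitted, 1 row (Cort) was called, and the adjusted p was 0.056 to 0.41 for the other 14 of the 15 largest rises and 0.21 to 0.58 for the 15 largest falls. The genes that rose included Cort, Cartpt and Cck, which encode neuropeptides, the mitochondrial genes Cox6a2, Cox17, Ndufs7 and Chchd10, and Lynx1, a brake on nicotinic receptors. Those that fell included the microtubule and growth cone genes Stmn1, Gap43, Tubb3 and Tubb5, and Ybx1, which encodes an RNA-binding cold shock protein. The genes are ordered below by what they encode, an order made after their values were seen. Of the 51 called rows, 44 carried a symbol that is not provisional, standing for 43 genes, 3 had provisional names and 4 had none. The P7 and P14 arrays did not overlap for 41 of the 51. Over 1 row per gene, all P14 arrays lay above all P7 arrays for 0.948% and below them for 0.616% of 16569 genes.

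The sequence just upstream of the start site is shown for 3 genes that rose and 3 that fell, chosen from the largest changes so that it can be read beside their values. The sequences are the 250 bases before the annotated start, written 5′ to 3′ on the gene's own strand, from RefSeq (build GRCr8). The sources used here do not name the build of the array design, and the coordinates belong to GRCr8 alone. Capitals mark matches on either strand to 4 motifs. These were the cAMP response element (TGACGTCA), a 10-base site for MEF2 factors (the capitals 50 bases before the start of Cox6a2), the CCAAT box (CCAAT, or ATTGG on the other strand) and the GC box (GGGCGG, or CCGCCC on the other strand). Cort lies at chr5:164845125-164845374, Cartpt at chr2:32991236-32991485 and Cox6a2 at chr1:192219717-192219966, all on the minus strand.
Cort: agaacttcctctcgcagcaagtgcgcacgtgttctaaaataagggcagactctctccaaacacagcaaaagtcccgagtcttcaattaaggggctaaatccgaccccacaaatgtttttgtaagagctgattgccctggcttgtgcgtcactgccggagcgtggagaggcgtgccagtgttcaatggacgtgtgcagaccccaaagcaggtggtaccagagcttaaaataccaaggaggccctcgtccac
Cartpt: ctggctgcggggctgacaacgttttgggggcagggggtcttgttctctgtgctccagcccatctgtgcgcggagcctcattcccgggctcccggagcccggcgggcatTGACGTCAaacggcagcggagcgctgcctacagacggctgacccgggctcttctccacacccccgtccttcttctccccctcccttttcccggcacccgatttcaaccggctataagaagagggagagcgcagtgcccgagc
Cox6a2: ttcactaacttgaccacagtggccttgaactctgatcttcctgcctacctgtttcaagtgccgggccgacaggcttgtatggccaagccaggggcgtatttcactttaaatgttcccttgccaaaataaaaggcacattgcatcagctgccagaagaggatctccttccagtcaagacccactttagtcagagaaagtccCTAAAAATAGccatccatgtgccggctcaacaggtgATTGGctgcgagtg
The falling genes shown are Ybx1 at chr5:138184189-138184438 on the minus strand, Stmn1 at chr5:151964929-151965178 on the plus strand and Tubb5 at chr20:2917327-2917576 on the plus strand.
Ybx1: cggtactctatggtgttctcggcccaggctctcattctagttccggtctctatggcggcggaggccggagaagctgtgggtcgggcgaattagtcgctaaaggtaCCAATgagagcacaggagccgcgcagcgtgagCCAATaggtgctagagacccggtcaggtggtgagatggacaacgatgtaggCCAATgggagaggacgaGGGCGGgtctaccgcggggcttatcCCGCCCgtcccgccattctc
Stmn1: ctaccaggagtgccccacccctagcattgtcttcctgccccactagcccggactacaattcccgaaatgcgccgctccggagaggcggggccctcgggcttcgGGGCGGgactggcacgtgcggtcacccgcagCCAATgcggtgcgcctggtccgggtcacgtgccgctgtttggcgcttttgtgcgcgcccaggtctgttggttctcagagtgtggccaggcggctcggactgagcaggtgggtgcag
Tubb5: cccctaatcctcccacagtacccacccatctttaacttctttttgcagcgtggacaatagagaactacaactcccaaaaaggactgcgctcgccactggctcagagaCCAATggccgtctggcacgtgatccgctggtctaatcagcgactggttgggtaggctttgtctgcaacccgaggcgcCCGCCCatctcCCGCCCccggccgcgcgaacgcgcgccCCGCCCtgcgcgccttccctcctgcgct

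Cort has no match to the 4 motifs in this window. In Cartpt the capitals are the cAMP response element, with its first base 142 bases before the start. In Cox6a2 they are the MEF2 site and 1 CCAAT box, and in Ybx1 they are 3 CCAAT boxes and 2 GC boxes. Stmn1 has 1 match to each of the CCAAT and GC boxes, and Tubb5 has 1 CCAAT box and 3 GC boxes. No marked matches overlap each other. Among called genes with exactly 1 upstream sequence, the CCAAT box occurred in 7 of 14 that fell. These were Ybx1, Tubb5, Stmn1, Tubb3, Hnrnpa2b1, Jpt1 and Prmt1. It occurred in 2 of 18 that rose (Cox6a2 and Klk1b3), against 34% of all 33469 sequences. The shares over all sequences were not limited to genes with 1 sequence. The GC box occurred in 12 of 14 and 11 of 18, against 30.5% of all. The cAMP response element was found in 1.59% and the MEF2 site in 0.114% of all sequences. These matches describe the letters only and were not tested.

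Cort encodes cortistatin, a peptide related to somatostatin that is made by a subset of cortical interneurons. Its intensity was 375, 255, 271, 154 and 134 on the P7 arrays and 2359, 3528, 3547, 2736 and 2701 on the P14 arrays. Every P14 array exceeded every P7 array by a wide margin. The log2 difference was 3.73 ± 0.44 (SE, n = 5 per age, limma adjusted p = 3.2e-05), from a geometric mean of 221 to one of 2936. Cort was also called when any 1 of the 10 HR arrays was left out, with differences between 3.55 and 3.92.

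Cartpt encodes the precursor of the CART peptides, which are found in neurons of many regions. It was at 413, 359, 306, 264 and 119 at P7 and at 2343, 2225, 1087, 1581 and 439.6 at P14. The groups did not overlap, but array 15 lay just above the highest P7 array. The difference was 2.29 ± 0.50 (limma adjusted p = 0.040), and it was 1.46 with an adjusted p of 0.12 among arrays 13 to 24 alone.

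Cck, the cholecystokinin gene of interneurons and of many pyramidal cells, was bright at both ages. It measured 13719, 12784, 11569, 9215 and 9461 at P7 and 27270, 37194, 25199, 31488 and 24795 at P14. All P14 values lay above all P7 values, by 1.36 ± 0.23 on the log2 scale (limma adjusted p = 0.0052). Cck was the 1 member of 27 measured genes of GABA signalling and interneurons that was called. In the same list Sst, the somatostatin gene, had P7 values of 3414, 3316, 3449, 1215 and 2027 and P14 values of 14150, 6904, 7943, 5918 and 4638. Those groups did not overlap either, at 1.56 ± 0.46, and Sst was not called (limma adjusted p = 0.14). The parvalbumin gene Pvalb was at 1.21 ± 0.44 (adjusted p = 0.25) and Npy, the neuropeptide Y gene, at 0.47 ± 0.21 (adjusted p = 0.37), with overlapping groups. The median of the list was 0.10, against 0.015 over all 16569 genes.

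**Figure D1:**
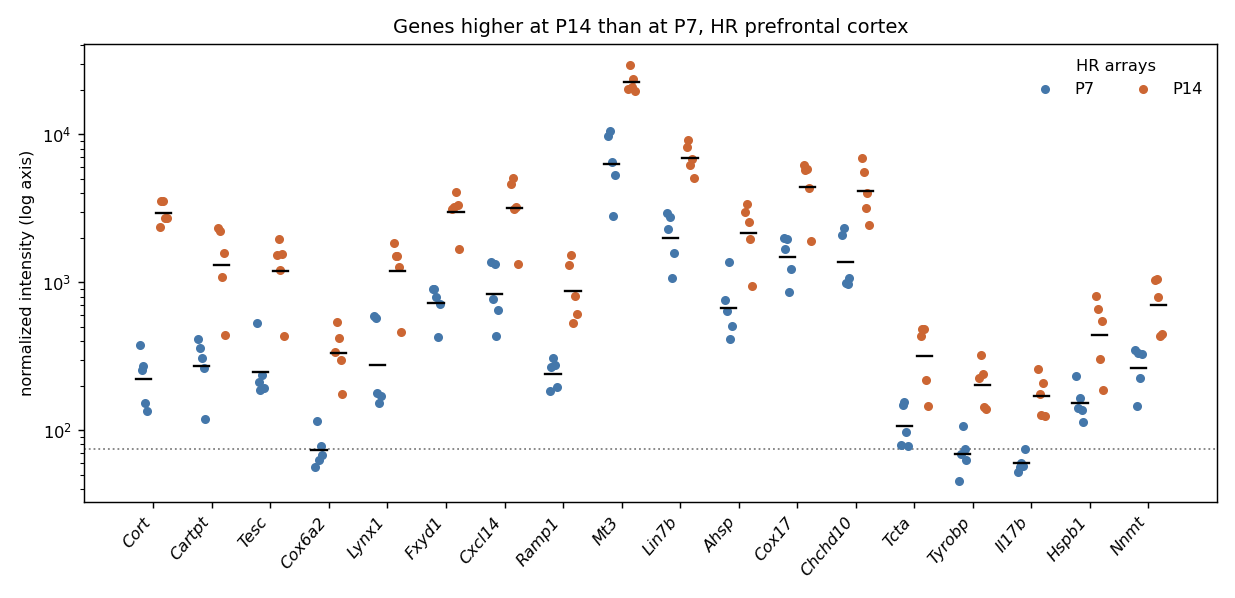
Normalized intensity on a log axis of the called genes with the largest rises, with 1 point per array (5 at P7, 5 at P14), black bars for the geometric mean of a group and a dotted line for the median row (74.0). Array 15, the last point of each P14 group, is the lowest P14 array for 13 of the 15 genes with the largest rises, and the groups overlap for 6 of them.

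Lynx1 encodes a membrane-anchored protein that dampens nicotinic acetylcholine receptors and limits plasticity in the adult mouse cortex. It was at 594, 576, 177, 152 and 171 at P7 and at 1831, 1508, 1506, 1275 and 460.0 at P14. Array 15 lay inside the P7 range and the other P14 arrays above it. The difference was 2.12 ± 0.40 (limma adjusted p = 0.011). Ramp1, the accessory subunit of the receptor for the peptide CGRP, was at 183, 267, 305, 277 and 195 at P7 and at 1310, 1525, 527, 812 and 606 at P14. These groups were apart, at 1.87 ± 0.39 (adjusted p = 0.029).

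Lin7b encodes a scaffold protein that holds channels and receptors at synapses and other cell junctions. Its intensity was 2950, 2297, 2758, 1068 and 1583 at P7 and 8256, 9135, 6179, 6757 and 5092 at P14, with no overlap and a difference of 1.8 ± 0.30 (limma adjusted p = 0.0040). Tesc, the gene of the calcium-binding protein tescalcin, was at 532, 212, 186, 235 and 193 at P7 and at 1535, 1965, 1216, 1561 and 430.1 at P14. Array 21 at P7 lay above array 15 at P14, and no other arrays of the groups overlapped. The difference was 2.27 ± 0.38 (adjusted p = 0.0042), while a second row of Tesc was at 1.90 (adjusted p = 0.057) and was not called. The chemokine gene Cxcl14 rose by 1.93 ± 0.36 (adjusted p = 0.011), from a P7 range of 434 to 1367 to a P14 range of 1326 to 5088.

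Genes of the respiratory chain and its assembly rose in part. Cox6a2 encodes the form of a cytochrome c oxidase subunit best known from heart and skeletal muscle. It was close to the median row at P7, at 56.3, 116, 62.5, 77.5 and 67.8, and reached 340, 536, 417, 299 and 175 at P14. The groups did not overlap and the difference was 2.17 ± 0.34 (limma adjusted p = 0.0022). Because the P7 values lie near the dim end of the table, the size of this fold is uncertain. Cox17, a copper chaperone for the same enzyme, rose by 1.58 ± 0.32 (adjusted p = 0.021) from 854 to 2002 at P7 to between 1894 and 6162 at P14, and array 15 was the 1 P14 array within the P7 range.

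Ndufs7, a subunit of complex I, was at 6663, 7628, 4731, 3263 and 5489 at P7 and at 13482, 11150, 13051, 14997 and 10184 at P14. The groups were apart, at 1.22 ± 0.23 (limma adjusted p = 0.011). Chchd10, which encodes a protein of the mitochondrial intermembrane space, rose by 1.58 ± 0.35 (adjusted p = 0.040) with groups that did not overlap. Of 49 measured genes of oxidative phosphorylation, 2 (Cox6a2 and Ndufs7) were higher, 0 were lower and 47 were not called, and the list median was 0.19. In 5 of the 49 all P14 arrays exceeded all P7 arrays. The other 3, named here after their values were seen, were Atp5mc1 at 0.57 ± 0.15 (adjusted p = 0.098), Cox6b1 at 0.40 and Cox6a1 at 0.39. Atp5f1b lay at the other end of the list, at -2.13 ± 0.73 (adjusted p = 0.21), with P7 values from 357 to 6734. Among arrays 13 to 24 alone the median of this list was -0.24.

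Mt3 encodes the brain form of metallothionein, a zinc- and copper-binding protein found in astrocytes and neurons. It was at 9730, 10599, 6461, 2792 and 5344 at P7 and at 20367, 29498, 20855, 23683 and 19694 at P14. The P14 arrays all lay above the P7 arrays, by 1.84 ± 0.32 (limma adjusted p = 0.0052). Fxyd1, the regulator of the sodium pump known as phospholemman, was at 906, 894, 791, 423 and 715 at P7 and at 3106, 3217, 4082, 3307 and 1690 at P14. It rose by 2.04 ± 0.36 (adjusted p = 0.0087) without overlap. Hspb1, a small heat shock protein gene, rose by 1.52 ± 0.35 (adjusted p = 0.048), with array 15 inside the P7 range.

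A microglial and a blood gene were also among the rises. Tyrobp encodes a signalling adaptor of microglia. It was at 45.2, 69.0, 106, 74.4 and 62.7 at P7 and at 227, 322, 239, 142 and 138 at P14, and the groups did not overlap. The rise was 1.56 ± 0.31 (limma adjusted p = 0.017), from a P7 mean near that of the median row. Tyrobp was the 1 called member of 17 measured microglia and complement genes, whose median was 0.36. Also without overlap, but not called, were the complement genes C1qa at 1.32 ± 0.37 (adjusted p = 0.12) and C1qb at 1.77 ± 0.50 (adjusted p = 0.12). Fcgr3a lay below in all P14 arrays at -0.54 (adjusted p = 0.32). These 3 were named after their values were seen. The microglial markers measured (Cx3cr1, Csf1r and Aif1) were not called, and their summed intensity ranged from 215 to 581 at P7 and from 290 to 1228 at P14. Their part in the rise of Tyrobp was not tested. In tissue dissected whole, a change in the number of cells of a type and one in RNA per cell cannot be told apart. This holds for every gene described, above and below.

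Ahsp encodes a chaperone of alpha-globin made in red cell precursors. It rose by 1.68 ± 0.38 (limma adjusted p = 0.043), from 754, 640, 1374, 411 and 505 at P7 to 2967, 3356, 2559, 1952 and 940 at P14. Array 15 lay below array 23 of the P7 group. The 4 blood markers, among them Hbb at 0.50 ± 0.27 (adjusted p = 0.48), were not called. Their sum ranged from 39783 to 71938.5 at P7 and from 53094 to 64563 at P14, and their part in the rise of Ahsp was not tested. Tcta completed the 15 largest rises at 1.57 ± 0.35 (adjusted p = 0.043).

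The falls were led by Ybx1, whose product packages and regulates messenger RNAs and is abundant in developing tissue. Its brightest row was at 3619, 4678, 29285, 46968 and 13384 at P7 and at 632.5, 2985, 166, 1224 and 163 at P14. The groups did not overlap, although both were wide, with array 24 highest at P7 and arrays 13 and 15 lowest at P14. The difference was -4.45 ± 0.84 (limma adjusted p = 0.011), and a second row gave -4.13 ± 0.84 (adjusted p = 0.021). Probes may not separate Ybx1 from its pseudogene copies. Hnrnpa2b1, another RNA-binding protein gene, was at 83.1, 102, 288, 328 and 105 at P7 and at 66.8, 59.7, 57.8, 65.0 and 63.0 at P14. The P14 values lay below the median row and the difference was -1.30 ± 0.29 (adjusted p = 0.043).

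Several falls were in microtubule and growth cone genes. Stmn1 encodes stathmin, which destabilises microtubules in dividing cells and growing neurons. It was at 5185, 6310, 11704, 24910 and 11243 at P7 and at 3288, 3607, 330.2, 1607 and 474 at P14. The groups were apart, at -3.03 ± 0.55 (limma adjusted p = 0.0093), and the gene was called when any 1 HR array was left out, with differences from -3.41 to -2.55. Gap43, the growth-associated protein of axon tips, was at 546, 631, 2497, 5019 and 1394 at P7 and at 298, 453, 47.4, 190.1 and 83.4 at P14. Its groups did not overlap and the difference was -3.17 ± 0.66 (adjusted p = 0.028). Without array 24 the difference was -2.72 and was not called (adjusted p = 0.13).

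Tubb3 encodes the neuronal beta-tubulin used as a marker of young neurons. It was at 548, 301, 686, 7194 and 994 at P7 and at 275, 236, 132, 213 and 142 at P14. Array 24 was far above the rest of the P7 group, and the groups did not overlap. The difference was -2.32 ± 0.52 (limma adjusted p = 0.043), and it was -1.6 (adjusted p = 0.13) without array 24. Tubb5, the beta-tubulin of proliferating and migrating cells, was at 191, 302, 316, 13873 and 481 at P7 and at 84.8, 139, 57.5, 68.6 and 43.7 at P14. The P14 mean of 72.8 was at the median row. The difference of -3.17 ± 0.68 (adjusted p = 0.037) became -2.07 (adjusted p = 0.046) without array 24. Tubulin genes are similar in sequence, and the sources used here do not say how far the probes separate them.

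Of 31 measured genes of immature neurons and axon growth, 3 (Stmn1, Gap43 and Tubb3) were lower, 0 were higher and 28 were not called. The list median was -0.67, against 0.015 over all genes, and 24 of the 31 differences were negative. In 6 of them all P14 arrays lay below all P7 arrays. The other 3, named after their values were seen, were the tau gene Mapt at -1.85 ± 0.43 (limma adjusted p = 0.0504), Tuba1a at -1.95 ± 0.59 (adjusted p = 0.16) and Fabp7, a lipid carrier of radial glia, at -2.26 ± 0.67 (adjusted p = 0.15). Stmn2, a stathmin of growing axons, was at -0.68 ± 0.24 (adjusted p = 0.23), and Dcx lay below the median row at both ages. The list median was -0.42 without arrays 15 and 24 and -0.91 among arrays 13 to 24 alone. Of 31 genes of neurofilaments and the mature cytoskeleton, 1 (Tubb5) was called, 6 were lower and 1 was higher without overlap, and the median was -0.23. The 1 higher gene was Thy1, a surface protein of mature neurons, at 1.35 ± 0.35 (adjusted p = 0.098), named after its value was seen.

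**Figure D2:**
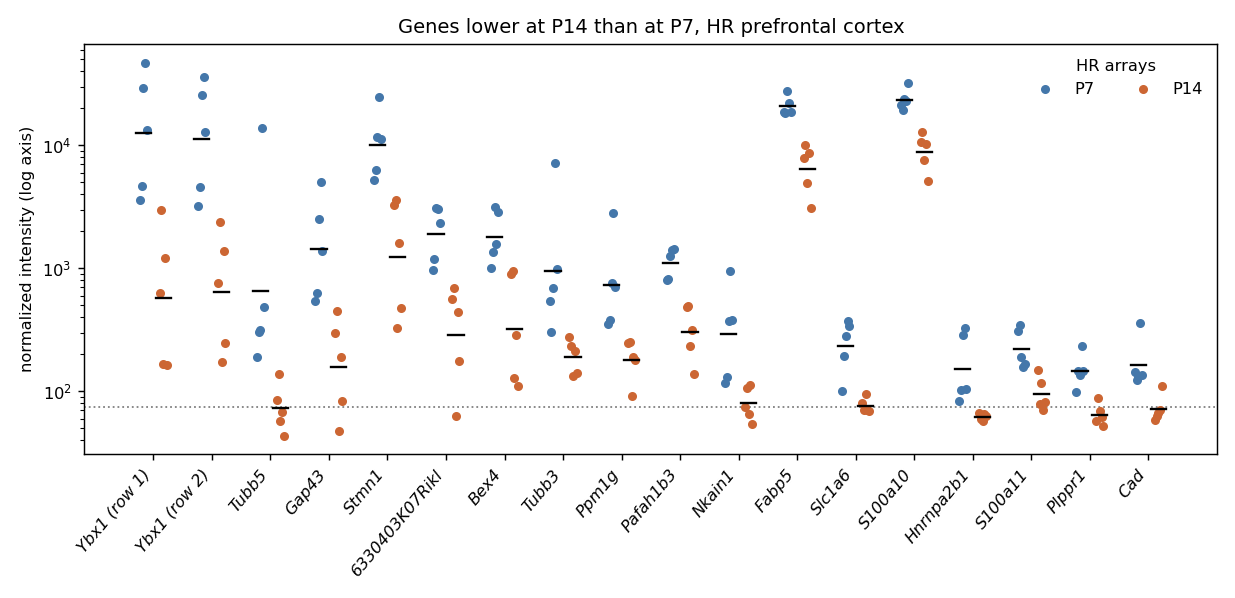
Normalized intensity on a log axis of the called rows with the largest falls, with 1 point per array, black bars for the geometric mean of a group and a dotted line for the median row (74.0). All 15 rows with the largest falls have groups that do not overlap, and array 24, the fourth P7 point, is the highest P7 array in 10 of them.

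Fabp5, a fatty acid carrier of the developing brain, was at 18495, 18372, 27658, 22182 and 18698 at P7 and at 7834, 10132.5, 4918, 8708 and 3096 at P14. The P14 arrays were all lower, at -1.71 ± 0.34 (limma adjusted p = 0.020). Pafah1b3, a catalytic subunit of the platelet-activating factor acetylhydrolase found in the embryonic brain, was at 809, 825, 1256, 1409 and 1440 at P7 and at 488, 498, 235.5, 312 and 139 at P14. It differed by -1.88 ± 0.29 (adjusted p = 0.0019), the smallest adjusted p among the named falls, and was called with any 1 HR array left out. S100a10, which encodes the annexin and channel partner p11, was at 21195, 19302, 23916, 22784 and 32109 at P7 and at 10563, 12743, 7594, 10299 and 5086 at P14. It fell without overlap by 1.41 on the log2 scale (SE 0.32, adjusted p = 0.043).

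Bex4, a gene of a family of small brain-expressed proteins, was at 1015, 1362, 3142, 1580 and 2849 at P7 and at 892, 956, 129, 285 and 111 at P14. The groups were close but did not overlap, at -2.49 ± 0.54 (limma adjusted p = 0.040). The phosphatase gene Ppm1g differed by -2.01 ± 0.39 (adjusted p = 0.013), with P7 values from 355 to 2839 and P14 values from 92.5 to 250.2. Slc1a6, a glutamate transporter gene best known from Purkinje cells, differed by -1.61 ± 0.30 (adjusted p = 0.011), and its P14 mean of 76.5 was near the median row. Nkain1, an interaction partner of the sodium pump, was at -1.87 ± 0.42 (adjusted p = 0.043), and its second row at -0.89 (adjusted p = 0.34) was not called. The gene 6330403K07Rikl was at -2.74 ± 0.52 (adjusted p = 0.011).

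The remaining 11 called rows with symbols fall outside the 15 largest changes each way and outside the lists, and were named after their values were seen. Higher were Il17b at 1.52 ± 0.33, Nnmt at 1.41 ± 0.32, Klk1b3 at 1.22 ± 0.27, the pseudogene Magmas-ps1 at 1.2 ± 0.26, Klk1c6 at 0.84 ± 0.19 and Pdlim7 at 0.80 ± 0.17. Lower were S100a11 at -1.21 ± 0.26, the lipid phosphatase-related Plppr1 at -1.18 ± 0.22, the pyrimidine synthesis gene Cad at -1.17 ± 0.26, the arginine methyltransferase gene Prmt1 at -1.03 ± 0.23 and Jpt1 at -0.86 ± 0.19. The kallikreins Klk1b3 and Klk1c6 belong to a family of near copies, and probes may not separate Magmas-ps1 from its parent gene.

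A set of 53 genes of postnatal cortical maturation was followed whatever their values, and 42 were measured. Cck was higher, Tubb3 and Gap43 were lower, and 39 were not called. Of the 42, 16 lay below the median row at both ages, so that a change could hardly be seen. Among them were Dcx, Grin2a, Grin2d, Slc12a5, Kcnc1, Aqp4, Slc1a2, Gja1, Mki67, Nefl, Dlg4, Syt2, Igf2 and Cyp46a1. Genes of the set without a row, among them Grin2b, Gfap, Syp and Nr3c1, were not analysed here.

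Of the myelin genes of the set, Mobp had a large difference with a wide error. Mobp, which encodes a protein of the myelin sheath, was at 1010.1, 1288, 473, 360.1 and 305 at P7 and at 3504, 2242, 3198, 1821 and 2381 at P14. The groups did not overlap, at 2.13 ± 0.55, and Mobp was not called (limma adjusted p = 0.099). A second, dimmer row of Mobp was at 0.78 ± 0.57 (adjusted p = 0.62). Mbp was at 1.07 ± 0.43 (adjusted p = 0.30). Of 27 measured genes of myelin and mature oligodendrocytes 0 were called, and their median was 0.11. Qdpr was at the other end, at -2.51 ± 0.63 (adjusted p = 0.090).

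Further genes of the set, each with at least 1 group above the median row, were not called. Bdnf, the neurotrophin gene, was at 62.2, 63.5, 71.1, 73.4 and 73.1 at P7 and at 153, 115, 89.0, 76.3 and 86.1 at P14. Its groups were apart, at 0.55 ± 0.21 (limma adjusted p = 0.28). Nrgn, a calmodulin-binding protein of dendritic spines, was at 1.01 ± 0.66, the potassium channel gene Kcna1 at 0.52 ± 0.38, Scn1a at 0.29 ± 0.23 and Grin2c at 0.25 ± 0.39. Ckb, the brain creatine kinase gene, was at -0.98 ± 0.59, the endothelial Cldn5 at -1.19 ± 0.77 and the chloride importer gene Slc12a2 at -0.37 ± 0.27. Camk2a (-0.16 ± 0.25), Ckmt1 (-0.18 ± 0.31), Nefh (-0.15 ± 0.26), Nefm (0.055 ± 0.28), Glul (0.13 ± 0.34), Ccnd1 (-0.097 ± 0.30) and Col1a1 (-0.094 ± 0.41) lay within 1 SE of 0.

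In the other gene lists few members were called. Heat shock and unfolded protein genes had 1 higher (Hspb1) and 0 lower of 19, with a median of -0.59, and in 3 of them all P14 arrays lay below all P7 arrays. The 3, named after their values were seen, were the chaperone genes Hspa5 at -1.55 ± 0.46 (limma adjusted p = 0.15), Hsp90ab1 at -1.50 ± 0.54 (adjusted p = 0.24) and Calr at -0.64 ± 0.29 (adjusted p = 0.37). Cell cycle and proliferation genes had 1 lower of 32, Stmn1 again, and blood cell genes 1 higher of 10, Ahsp, with medians of -0.049 and 0.12. The lists below had 0 called members. Glycolysis and tricarboxylic acid cycle genes had a median of -0.34 (40 genes), histones, chromatin and DNA methylation -0.37 (31), cholesterol and fatty acid synthesis -0.29 (32), cortical layers and projection neurons -0.27 (24), creatine, buffering and mature energy supply -0.23 (21) and ribosomal proteins -0.22 (50). Without arrays 15 and 24 the medians were 0.00077 for glycolysis, -0.0032 for creatine and -0.22 for the heat shock list.

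Lists of synapses and excitability also had 0 called members and medians close to that of all genes. These were synaptic vesicle and release (0.067, 23 genes), postsynaptic density and spines (0.044, 30), glutamate receptors (0.034, 21), voltage-gated channels (0.056, 31), activity-induced early genes and neurotrophins (0.14, 25) and axon guidance and cell adhesion (-0.12, 31). For signalling, the medians were 0.12 for glucocorticoid, stress peptide and thyroid genes (26), 0.064 for serotonin, dopamine, acetylcholine and endocannabinoid genes (24), 0.042 for growth factors (39) and 0.14 for apoptosis and survival (19). For cell types and neighbouring tissue they were 0.14 for astrocytes (24), -0.055 for oligodendrocyte precursors (12), -0.037 for the perineuronal net and matrix (21), -0.094 for collagens, meninges and fibroblasts (19), 0.028 for endothelium and mural cells (24), 0.23 for choroid plexus and ependyma (10), 0.011 for the striatum (13) and 0.11 for the thalamus and hypothalamus (16).

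**Figure D3:**
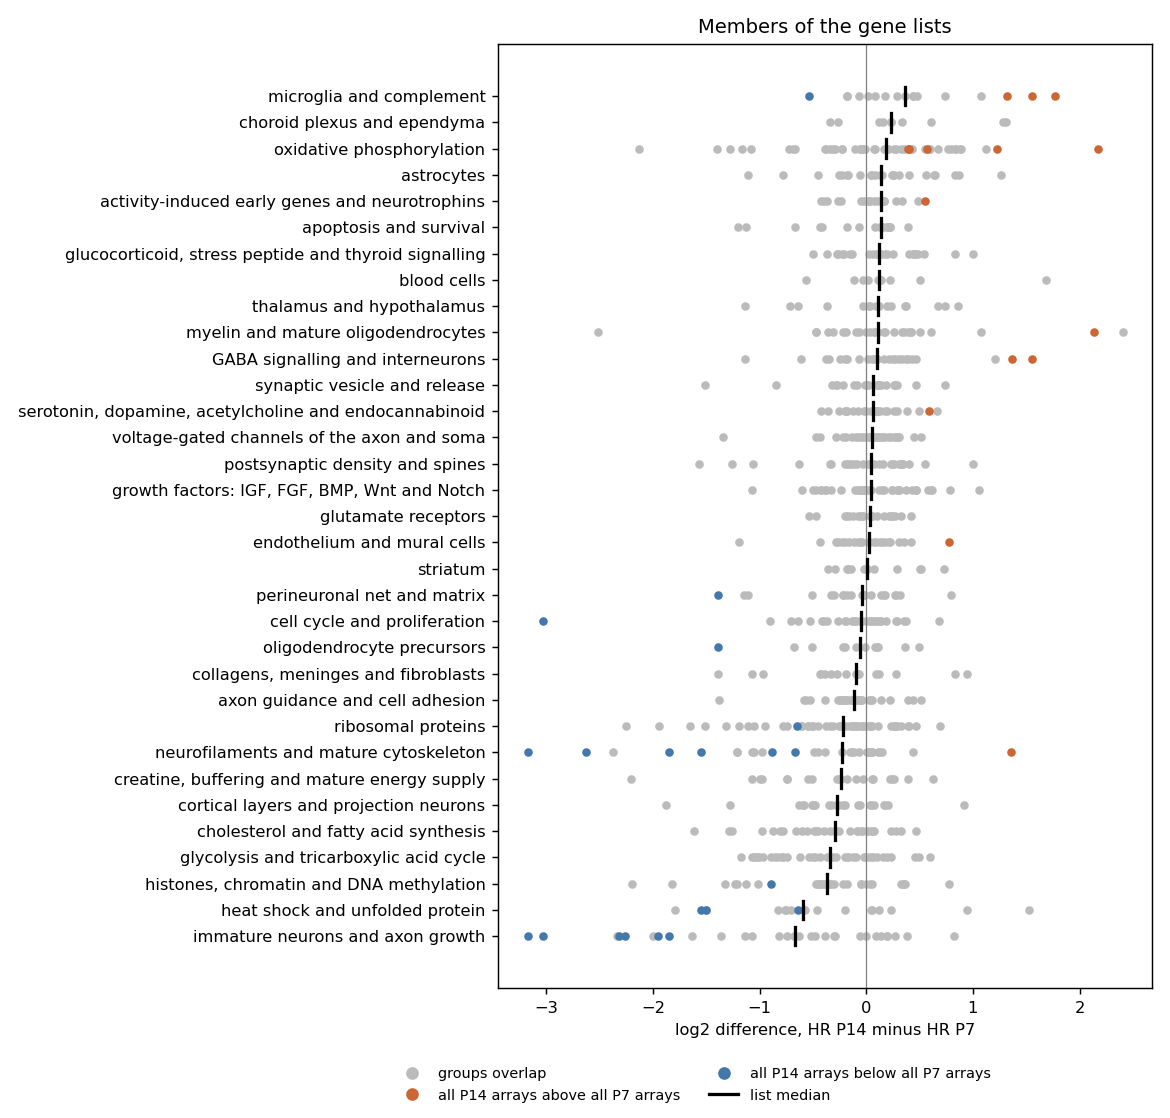
Log2 difference (HR P14 minus HR P7) of each measured member of the 33 gene lists, 1 point per gene, with orange and blue points where all P14 arrays lie above or below all P7 arrays and a black bar for the list median. The lists of immature neurons (-0.67) and heat shock (-0.59) have the lowest medians and microglia (0.36) the highest.

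The tissue was checked against markers of 9 cell types and regions, of which 36 genes were measured and 0 were called by limma. Markers of cortical neurons were dim, with Slc17a7 at a mean of 60.5 at P7 and 72.7 at P14 and Neurod6 at 141 and 91.1, while Emx1 was at 135 and 108. Markers of tissue around the cortex varied between arrays. The summed choroid plexus markers ranged from 418 to 2087 at P7 and from 843 to 2619 at P14, led by Ttr at 1.31 ± 1.17, and the meningeal markers from 940 to 8424 and from 515 to 1446, led by Col1a2 at -1.39 ± 0.53 (limma adjusted p = 0.27). Their part in the differences was not tested.

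Much of the spread inside groups lay on 1 axis, on which the falls had high loadings. A principal component of the 30 arrays, with loadings taken after removing group means, held 27.8% of that spread. Scores were computed from values that keep the group means, so a score difference between ages can hold part of the age change itself. The score was 32.8 and 39.1 on arrays 11 and 12 at P14, and -65.7, -37.6 and -87.3 on arrays 13, 14 and 15. At P7 it was -32.4, -45.2, 28, 50.7 and 13.6 on arrays 21 to 25. The mean was 2.95 ± 40.6 at P7 and -23.7 ± 57.3 at P14 (SD, n = 5), a difference of -26.7 that was within the spread (exact permutation test, two-sided, p = 0.39 over 252 assignments, adjusted p = 0.39 over 2 lines). In LR the score also differed by -37.0, from 14.4 ± 9.5 at P7 to -22.7 ± 29.6 at P14 (exact permutation test, two-sided, p = 0.024, adjusted p = 0.048). The 15 rows with the largest falls had loadings on this axis between the percentiles 75 and 99.9 of all rows, with a median at 96.9. For the 15 largest rises the percentiles ran from 19.3 to 90.0, with a median at 63.8. With the score as a covariate all 51 rows remained called. The score keeps the group means, so the covariate can take up part of the age difference. The axis was taken from the residuals of this same fit, so the covariate also takes up residual spread by construction. That the calls remained is therefore no independent check of them. With the covariate the difference was -3.70 for Ybx1, -2.38 for Stmn1, 3.63 for Cort and 2.45 for Cartpt.

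**Figure D4:**
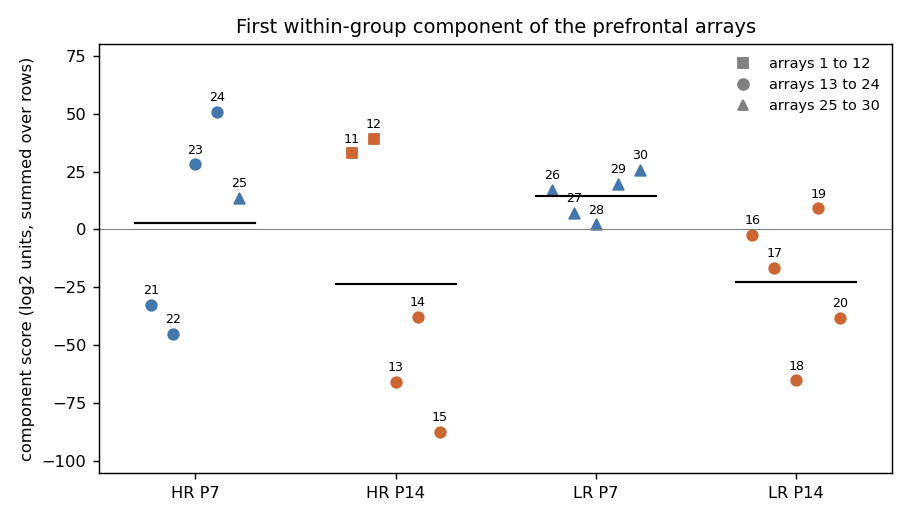
Score of each array on the first within-group component of the prefrontal arrays, in summed log2 units, with the array number above each point, the shape giving the run of array numbers and black bars for group means. HR P14 spans -87.3 to 39.1 and HR P7 -45.2 to 50.7, so the HR groups overlap on this axis.

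The array numbers add a second limit. If numbers 1 to 12, 13 to 24 and 25 to 30 mark runs of arrays, which the labels do not say, then arrays 11 and 12 of P14 and array 25 of P7 lie in other runs than the rest. Among arrays 13 to 24 alone, with 3 P14 and 4 P7 arrays of HR, limma called 14 rows, 8 of them among the 51. All 51 kept their direction, which could not change for the 41 whose HR groups did not overlap. Cort (3.56, adjusted p = 0.0088), Stmn1 (-3.97, adjusted p = 0.049), Bex4 (-3.34, adjusted p = 0.049), Pafah1b3 (-2.26, adjusted p = 0.049) and Fxyd1 (1.97, adjusted p = 0.049) were among those 8. Arrays 15 and 24 had the lowest correlation of any HR pair of these ages (r = 0.76 across rows), and without them 20 rows were higher and 2 lower. Of the 15 falls Pafah1b3 was the 1 still called there (-1.52, adjusted p = 0.017).

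The same step in the LR line was measured on other arrays of the same table. All LR P14 arrays are numbered 16 to 20 and all LR P7 arrays 26 to 30, so that under the assumed runs age and run cannot be told apart in LR, and with the run as a block 0 LR rows were called. The LR ages also differ on the component described above, and the part of either in the LR values was not tested. In LR, 223 rows were called, 1.2% of all, of which 109 were higher (0.587%) and 114 lower (0.614%). Of the 51 rows called in HR, 50 had the same direction in LR, against 63.7% of all rows, and 34 were called there the same way. Those 34 are 66.7% of the HR calls and 15.2% of the LR calls. The median LR difference was 1.51 for the rows that rose in HR and -1.77 for those that fell. Of the 223 rows called in LR, 207 had the same direction in HR. Over 1 row per gene, 0.598% were called higher and 0.628% lower in LR, and the groups did not overlap for 3.3% above and 3.75% below. Against these, 4 of the 31 genes of immature neurons and axon growth were called lower in LR and 9 lay below without overlap. Of the 49 genes of oxidative phosphorylation, 4 were called higher, 13 lay above and 5 below.

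Cort rose by 3.32 ± 0.44 in LR (limma adjusted p = 0.00012), with P7 arrays from 122 to 236 and P14 arrays from 746.5 to 2792. Cartpt rose there by 3.24 ± 0.50, Lynx1 by 2.61 ± 0.40, Cox17 by 2.18 ± 0.32 and Tesc by 1.99 ± 0.38. Ybx1 differed by -4.69 ± 0.84 and Pafah1b3 by -2.52 ± 0.29. Stmn1 differed by -2.67 ± 0.55, while Gap43 at -2.51 ± 0.66 (adjusted p = 0.051), Tubb5 at -2.52 ± 0.68 (adjusted p = 0.059) and Tubb3 at -1.97 ± 0.52 (adjusted p = 0.052) were not called in LR.

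The test of the difference between the lines in this step called 0 of 18564 rows (0%) by limma. At an unadjusted p under 0.05 there were 862 rows, 4.64% of all. Among the 51 HR calls 4 had such an unadjusted p. Plppr1 differed by -1.18 ± 0.22 in HR and by -0.20 ± 0.22 in LR (unadjusted p = 0.0041, limma adjusted p = 0.999 for the difference). Klk1c6 was at 0.84 in HR and 0.15 in LR (limma unadjusted p = 0.015) and Cad at -1.17 and -0.37 (limma unadjusted p = 0.037). The remaining one was a row with a provisional name. In HR the lower group of all 4 lay below the median row (74.0). Plppr1 went from 146 to 64.5 in HR and from 78.5 to 68.5 in LR, where a fall could hardly be seen. Klk1c6 went from 59.4 to 106 in HR and from 72.5 to 80.5 in LR. No row was called as differing between the lines.

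**Figure D5:**
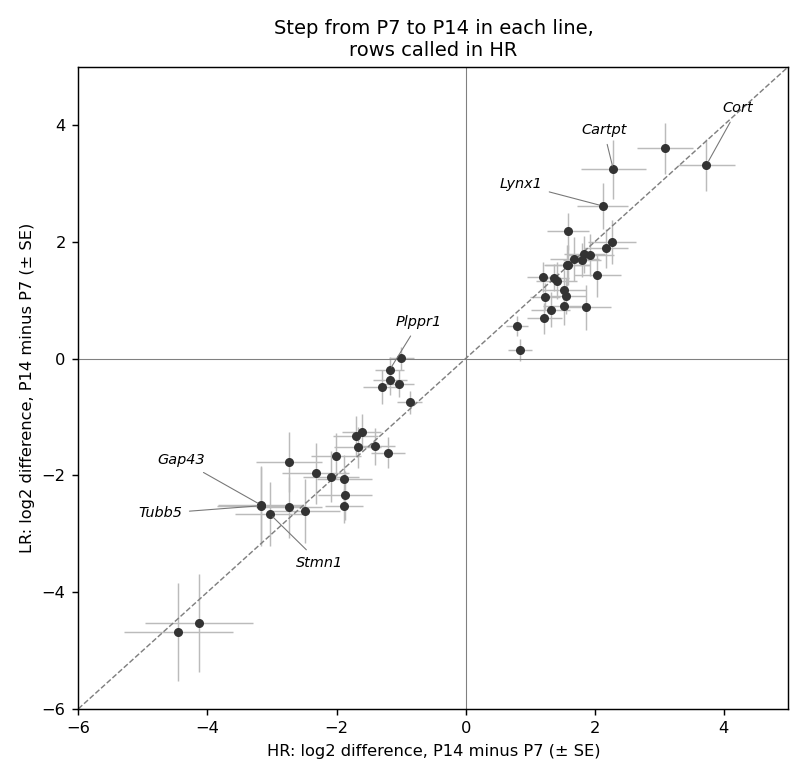
Log2 difference from P7 to P14 in HR (horizontal) and in LR (vertical) for the 51 rows called in HR, with bars of 1 SE and a dashed line of equal change. Ybx1 (-4.45 and -4.69) and Cort (3.73 and 3.32) are at the ends, Plppr1 (-1.18 and -0.20) is among the points away from the dashed line, and 50 of the 51 have the same sign in both lines.

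From P14 to P21 in HR, a comparison that shares the P14 arrays, limma called 0 of 18564 rows (0%), with 1825 at an unadjusted p under 0.05. Values are therefore given side by side only. Cort had a geometric mean of 221 at P7, 2936 at P14 and 1097 at P21, Cartpt 269.6, 1315 and 671, and Ahsp 672, 2158 and 863. Tesc went from 249 to 1197 and 2219, and Lynx1 from 275 to 1195 and 1956. Pvalb was at 67.8, 156 and 665. Among the falls, Stmn1 was at 10140.5, 1244 and 2138, Gap43 at 1432, 159 and 151, and Pafah1b3 at 1112, 301 and 163. Of the 15 largest rises, 10 had a P21 mean between those of P7 and P14, and of the 15 largest falls, 9 had. These rows were chosen for their large differences at P14, and the share over all rows was not computed. The counts and the P21 values above therefore cannot tell a return at P21 from the effect of that choice.

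In the amygdala of HR rats, whose table was normalized separately, 1628 of 17519 rows were higher at P14 (9.29%) and 1450 lower (8.28%). All 51 prefrontal calls had a row there, 44 with the same direction, against 57.1% of all rows measured in both regions, and 30 called the same way. Cort was at 1.24 (limma adjusted p = 0.00088), Cck at 1.29, Cox17 at 1.86, Ybx1 at -2.78 and Gap43 at -2.35. Called the other way were Fxyd1, at -0.36 (adjusted p = 0.028), and LOC688215, a provisional name, at -1.01 (adjusted p = 0.0073) against 1.32 in the prefrontal cortex. Bex4 was at 0.13 (adjusted p = 0.61). No test was made between the regions.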

How the data were processed

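RNA of the prefrontal cortex and the amygdala was hybridised, labelled with Cy3, to single-colour NimbleGen arrays, per the labels' protocols. The authors deposited a table of normalized intensity per region on a linear scale, and the submitters' processing notes name RMA with no version. The series matrix values equal the prefrontal table in all 30 columns. Log2 was taken of every deposited intensity, since the tests had been planned for log2 values.

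The prefrontal table had 18564 rows after 1 control row was left out, and no array pair held identical values. Rows were named through RefSeq genes (GRCr8, names only) by gene ID or accession for 14334 rows and by the file's symbol for 3363, and 867 had none. Array columns carry line, region, age and an array number but no replicate number. Median array intensity was 74.5 to 80.2, and correlations within the HR groups were 0.837 to 0.960 at P7 and 0.780 to 0.956 at P14. Within the LR groups they were 0.942 to 0.963 at P7 and 0.906 to 0.964 at P14. The SE of a row pools the spread of all groups and is the same in HR and LR. It can therefore understate the spread of the HR arrays. The number of arrays (5 per group) limits the precision.

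limma 3.58.1 in R 4.3.3 fitted 6 group means to the 30 arrays, with calls at an adjusted p under 0.05. Named genes were the 15 largest rises and 15 largest falls in log2 among called rows with a non-provisional symbol whose brighter group exceeded the median row, up to 4 called members per list, the 6 largest line differences each way (0 were called) and the set of 53. Some genes of the set are not reported here. A gene with several rows is described by its brightest row. The 33 lists, the genes and the tests were chosen with earlier results of these data known. Alternatives covered the arrays fitted, normalization, dim rows, weights, variance model, the component, array runs, the series matrix, the replicate number, rows per gene, the header code and single arrays. Same-numbered P7 and P14 samples of HR did not deviate together (r of deviations from -0.31 to -0.10). These values show no pairing by number but cannot exclude one.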

Additional observations from a re-analysis of the deposited data

Results flagged for a closer look

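Within a group of 5, a sample whose gap to its neighbour exceeded 0.71 of the group's range, both in log2, was taken as far from the others. This held for 6 of 130 groups, and chance marks about 1 in 20. Array 24 at P7 stood apart for Tubb5, at 13873 with the next array at 481, for Cad, at 362 with the next at 143, and for Ckmt1, at 207 with the next at 95.7. Array 21 at P7 stood apart for Tesc, at 532 with the next at 235, and for Nefh, at 138 with the next at 85.6. Array 15 at P14 was low for Lynx1, at 460.0 with the next at 1275.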

How the results depend on the processing

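All 51 calls of the HR step kept their direction under every alternative that tested them. Of these, 49 were tested above the median row and 46 with 1 row per gene. For the 41 whose groups did not overlap, leaving out arrays could not change the sign. The kept direction is therefore no independent check of the calls. The number of calls moved between 1 and 446. It was 1 with only the 10 HR arrays fitted, 100 after quantile normalization, 245 with the component score as a covariate, 446 with the array run as a block, 14 among arrays 13 to 24 alone, 22 without arrays 15 and 24 and 0 without arrays 11, 12, 13 and 15. The share of calls that were higher was 61.2% with the component score, 35.9% with the run block, 38.7% with array weights and 90.9% without arrays 15 and 24. Leaving out 1 array gave 16 (array 24) to 135 (array 22), with 21 without array 25, 22 without array 13, 29 without array 23 and 89 without array 21, and 10 rows were called in all 10 cases. Several of these settings fit fewer arrays. The component score takes up residual spread of the same fit by construction and can take up part of the age difference. The run block and arrays 13 to 24 alone gave the same HR differences. Only arrays 13 to 24 hold both HR P7 and HR P14 arrays in 1 assumed run. The run block took its error from all 30 arrays. Otherwise the cause was not tested. The line difference had 1 call with the component score and 0 otherwise. The LR step (223) had 125 with the 20 arrays of both ages, 960 with array weights, 0 with the run block, 130 with the replicate block, 456 without arrays 15 and 24, 416 without arrays 11, 12, 13 and 15, and 41 to 341 with 1 array left out. The step to P21 (0) had 42 after quantile normalization, 1 among rows above the median row, 2 with robust moderation, 121 with the component score, 10 with the run block, 4 without arrays 15 and 24, and 0 to 55 with 1 array left out. The replicate block, on numbers for which no pairing was seen or excluded, gave 34 calls for the HR step, 33 of them among the 51. With the header code as a random block (correlation within a code -0.011), 52 rows were called in HR, all 51 among them. The settings that use arrays 13 to 24 alone, leave out several arrays or use the header code were chosen after seeing the data.

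For single genes, 1250 of 1687 alternative values kept direction and side of the threshold, 397 lost and 6 gained the call, and 34 changed sign, all of genes that were not called. The run block and arrays 13 to 24 alone each gave -0.35 for Glul, 0.34 for Nefh, -0.26 for Nefm and -0.15 for Nrgn. The component score gave -0.079 for Grin2c, 0.096 for Ccnd1, 0.22 for Col1a1 and 0.040 for Ckmt1. Without arrays 15 and 24, values were -0.025 for Grin2c, 0.32 for Ccnd1, 0.037 for Camk2a, 0.090 for Col1a1 and 0.052 for Ckmt1. Without arrays 11, 12, 13 and 15, which left array 14 alone at P14, they were -0.27 for Glul, 0.66 for Nefh and 0.28 for Camk2a. Array weights gave 0.046 for Nefh. With 1 array left out the ranges were -0.12 to 0.24 for Glul, -0.30 to 0.15 for Ccnd1, -0.36 to 0.040 for Nefh, -0.20 to 0.27 for Nefm, -0.36 to 0.14 for Col1a1 and -0.28 to 0.063 for Ckmt1. Of 858 counts for lists, 723 stayed within 1.5 times and 135 moved. Rows near the median row have little signal over background, and a change in them may not be seen.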
